A study of Homo sapiens with 16 samples.

Results

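The genes described here are 45 genes of DNA replication, chosen by name and by their step at the origin or the fork. They were not chosen by any measured value, although earlier results of these data were known. They were 45 of the 60642 gene symbols in a TPM table of LNCaP cells, and each was found there once. TPM is a read level per transcript length, scaled to 1 common total in every library, so levels of different genes may be set side by side. LNCaP cells are an androgen-dependent human line from a prostate cancer metastasis. All 16 libraries came from cells grown for 72 h with 5% fetal bovine serum, then kept for 48 h in 5% charcoal-stripped serum, which is depleted of androgen, and then treated for 48 h. The groups were VEH (the solvents ethanol and DMSO), DHT (10 nM dihydrotestosterone, an androgen, with DMSO), and bicalutamide (BIC), enzalutamide (ENZ) or apalutamide (APA) at 10 µM, each without DHT (BIC.VEH, ENZ.VEH, APA.VEH) and with 10 nM DHT (BIC.DHT, ENZ.DHT, APA.DHT). The 3 drugs are antiandrogens, called antagonists below. Each of the 8 groups held 2 libraries, called replicate 1 and replicate 2, and the labels call them biological replicates without saying what separated them. A single cell line limits what the groups stand for, and without further labels the p-values below measure the spread between these libraries.

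Replication begins with licensing. The origin recognition complex (ORC1 to ORC6) binds DNA, and CDC6 and CDT1 then load the MCM2 to MCM7 ring, the replicative helicase, while geminin (GMNN) holds CDT1 in check. At firing, MCM10, CDC45 and the GINS complex turn the ring into an active helicase, after which the clamp PCNA, its loader RFC and the polymerases copy the strands, and FEN1 and LIG1 finish the lagging strand. RRM1, RRM2, TYMS and TK1 make deoxynucleotides, and CHAF1A, CHAF1B and UHRF1 restore chromatin and its methylation behind the fork. Most of these genes are known to be transcribed as cells enter S phase, largely under E2F factors.

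The cells carried the markers of their label in all libraries. The luminal prostate genes KLK3, KLK2, HOXB13, FOLH1, SLC45A3, KRT8 and KRT18 were all detected, and KLK3, a gene known to be induced by androgens, stood at 53.0 and 24.0 TPM in VEH and at 4102 and 2422 TPM in DHT (replicates 1 and 2). Markers of basal cells (TP63, KRT5), stroma (COL1A2, DCN), leukocytes (PTPRC, CD3E) and endothelium (PECAM1, CDH5) were at or near 0 in every library. Of the other markers of those cells, COL1A1 ran from 11.4 to 32.6 TPM, and KRT14 and VWF did not exceed 1.90 TPM. Mitochondrially encoded transcripts took 14.7% of TPM in DHT replicate 2 and 22.3% in DHT replicate 1, the lowest and the highest of the 16 libraries. The leukocyte marker CD68 ran from 2.27 to 12.1 TPM in replicate 1 and from 0.92 to 1.81 TPM in replicate 2.

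The replication genes themselves set the replicates apart. Between 40 and 44 of the 45 genes were higher in replicate 2 than in replicate 1 within each group, where 41.1% to 61.2% of all genes were. The median gap was 0.64 in DHT and 1.00 in ENZ.DHT, the lowest and highest of the groups, on the log2(TPM + 1) scale used for all differences below. Summed over the 45 genes, VEH held 815 and 1200 TPM, DHT 1462 and 2257 TPM, and ENZ.DHT 654 and 1185 TPM. What lay behind the gap was not tested. It widens the spread of a plain group comparison, and every contrast is therefore given under 2 fits, without a term for the replicate number and with that number as a block.

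Levels differed widely among the 45 genes. POLD2, the second subunit of polymerase delta, had the highest TPM in all 16 libraries, from 167 to 321. The initiation factor MCM10 was among the lowest, from 0.21 to 12.2 TPM. The plot of all genes against VEH of the same replicate shows the pattern that the following paragraphs give in values.

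**Figure D1:**
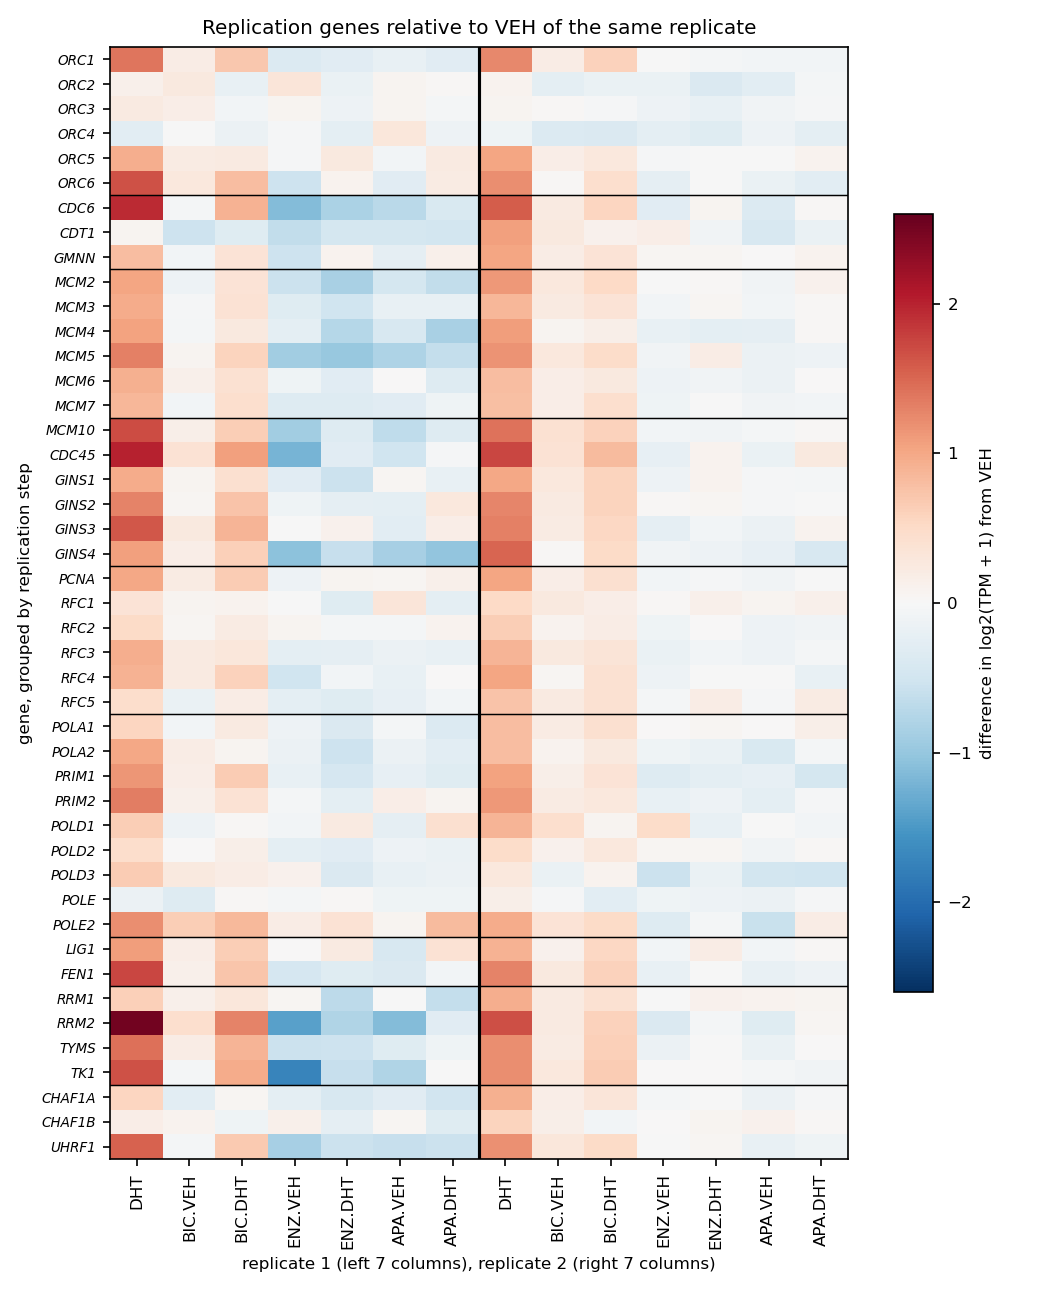
Difference in log2(TPM + 1) from VEH of the same replicate for the 45 genes (rows, grouped by step) in the 7 other groups of replicate 1 (left) and replicate 2 (right), red above and blue below VEH. The DHT column is the reddest in both replicates, BIC.DHT is paler, and most cells of the ENZ and APA columns lie near or below 0.

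Most of the 45 genes rose with DHT. Relative to VEH, 43 of the 45 genes were higher in both replicates (background: 29.2% of all genes tested), and in 39 both DHT libraries lay above both VEH libraries (background: 20%). The median log2 fold change of the 45 genes was 0.98, with a range of -0.19 to 2.09, while the median of all 16636 genes tested was -0.098. With the replicate block, 38 of 45 genes rose and none fell (limma, Benjamini-Hochberg adjusted p below 0.05; background: 10.6% of all genes called higher and 16.8% lower). Without the block, 3 were called higher (background: 3.63%) and none lower (background: 6.64%), and 15 had an unadjusted p below 0.05 (limma, 4182 of all 16636 genes tested). The 3 were ORC5, RFC2 and PRIM2, and leaving out VEH replicate 1 or DHT replicate 2 took this count to 0.

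Among the origin recognition genes 3 of 6 rose with the block, and the complex was split. ORC1, its ATP-hydrolysing subunit and the one known to come and go with the cell cycle, went from 1.68 and 3.50 TPM in VEH to 6.01 and 9.64 in DHT. Both DHT libraries lay above both VEH libraries, with a log2 fold change of 1.31 ± 0.52 (SE without the block). ORC1 passed with the block (adjusted p = 0.000128) and not without it (adjusted p = 0.144, limma). ORC5, another subunit of the complex, stood at 15.7 and 19.7 TPM in VEH and 31.2 and 41.1 in DHT. It rose by 0.99 under both fits, with a SE of 0.20 without the block (limma adjusted p = 0.0105 without and 7.45e-05 with the block). ORC6 was the third that rose, by 1.43. ORC2, a core subunit, was at 14.2 and 22.6 TPM in VEH and 15.6 and 24.1 in DHT. Its groups overlapped and its log2 fold change of 0.11 had a 95% interval of -0.21 to 0.43 with the block. ORC3 and ORC4 did not pass either, and ORC4 was the one gene of the 45 lower with DHT in both replicates (background: 48.1%), with a log2 fold change of -0.19.

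Of the loaders and their inhibitor, CDC6 and GMNN rose. CDC6, the ATPase that brings the helicase to ORC, went from 4.79 and 14.6 TPM in VEH to 21.4 and 45.8 in DHT. Every DHT library exceeded every VEH library, and the log2 fold change was 1.77 (limma adjusted p = 0.00123 with the block, 0.326 without). Its partner CDT1 stood at 13.8 and 10.2 TPM in VEH and 14.6 and 22.5 in DHT. The libraries of replicate 1 differed by 0.073 and those of replicate 2 by 1.06, and CDT1 passed under neither fit (adjusted p = 0.0887 with the block, limma). GMNN rose by 0.92, so the ratio of CDT1 to GMNN TPM was 1.06 and 0.537 in VEH and 0.615 and 0.563 in DHT, with overlapping groups.

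All 6 helicase genes and all 6 firing genes rose with the block. MCM2 was at 17.2 and 26.0 TPM in VEH and 36.3 and 58.1 in DHT, MCM5 at 12.8 and 22.2 and 33.4 and 51.1, and MCM7 at 42.4 and 70.9 and 77.7 and 122. The 3 subunits had no overlap between DHT and VEH, with log2 fold changes of 1.08, 1.24 and 0.82, MCM5 being the largest of the ring and MCM7 the smallest. CDC45, the helicase cofactor, went from 2.33 and 7.54 TPM to 12.4 and 27.5 TPM. Its log2 fold change of 1.87 (limma adjusted p = 0.000419 with the block, 0.253 without) was the largest of the firing genes. GINS1 (also PSF1), the smallest change of that step, went from 4.31 and 9.19 TPM to 9.39 and 19.4 TPM. Its groups did not overlap, although DHT replicate 1 exceeded VEH replicate 2 by only a little, and the log2 fold change was 0.98.

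At the fork, all 6 clamp and loader genes, 7 of 9 polymerase genes and both maturation genes rose with the block. PCNA, the sliding clamp, went from 44.3 and 87.0 TPM to 90.0 and 177 TPM. The 2 replicates moved by 1.00 and 1.02, nearly the same step from different starting levels. The blocked fit gave PCNA the lowest adjusted p of the 45 genes (2.62e-05), while the plain fit gave 0.273 (both limma). RFC2, a subunit of the clamp loader, went from 32.2 and 34.5 TPM to 45.9 and 54.5 TPM. Its log2 fold change of 0.57 ± 0.12 (SE without the block) passed under both fits (limma adjusted p = 0.0120 without the block). RFC1, the large subunit, went from 32.4 and 32.1 TPM to 41.6 and 46.3 TPM, with separated groups and a log2 fold change of 0.43.

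Of the polymerases, PRIM2, the large primase subunit, went from 4.13 and 6.87 TPM to 11.8 and 16.3 TPM. It rose by 1.23 under both fits (limma adjusted p = 0.0464 without and 0.000112 with the block). POLE, the catalytic subunit of the leading-strand polymerase, stood at 24.0 and 22.7 TPM in VEH and 21.4 and 25.2 in DHT. The groups overlapped, the replicates moved in opposite directions, and the log2 fold change of -0.0063 had a 95% interval of -0.33 to 0.31 with the block, whereas its partner subunit POLE2 rose by 1.09. POLE turned positive under another scaling (0.11 with median-ratio scaling) and passed the threshold under none. POLD3, a subunit of polymerase delta, did not pass either. FEN1, the flap nuclease, went from 13.4 and 26.4 TPM to 47.4 and 66.0 TPM, and LIG1, the ligase, from 5.64 and 9.53 TPM to 13.1 and 18.8 TPM. Both had separated groups and rose with the block, by 1.52 and 1.00.

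The nucleotide supply genes gave the largest change. RRM2, the regulated small subunit of ribonucleotide reductase, went from 8.87 and 35.0 TPM to 55.1 and 113 TPM. Its log2 fold change of 2.09 (95% interval 1.19 to 2.98 with the block) was the highest of the 45 genes, and both DHT libraries lay above both VEH libraries. RRM1, the large subunit, moved from 53.8 and 66.3 TPM to 82.8 and 129 TPM, a log2 fold change of 0.78. The ratio of RRM2 to RRM1 TPM was accordingly 0.165 and 0.528 in VEH and 0.665 and 0.876 in DHT. TYMS, thymidylate synthase, went from 19.7 and 46.5 TPM to 54.9 and 109.7 TPM, and TK1, thymidine kinase, from 18.0 and 49.1 TPM to 58.9 and 115 TPM. Groups were separate for both, and with the block TYMS rose by 1.33 and TK1 by 1.43 (limma adjusted p = 0.000328 and 0.0241).

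Behind the fork, UHRF1, which reads hemimethylated DNA and brings in the maintenance methyltransferase, went from 1.92 and 5.70 TPM to 7.43 and 14.2 TPM and rose by 1.35 with the block. CHAF1A, the large subunit of the chromatin assembly factor, rose as well. Its partner CHAF1B moved from 8.98 and 8.21 TPM to 10.2 and 12.7 TPM without passing (limma adjusted p = 0.0733 with the block), although its groups did not overlap. By step, the median log2 fold changes were 1.38 for firing and for nucleotide supply and 0.57 for origin recognition, the highest and the lowest of the 9 steps. The 7 genes not called with the block were ORC2, ORC3, ORC4, CDT1, POLD3, POLE and CHAF1B. In bulk libraries, fewer cells that express a gene and less RNA of it per cell cannot be told apart.

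**Figure D2:**
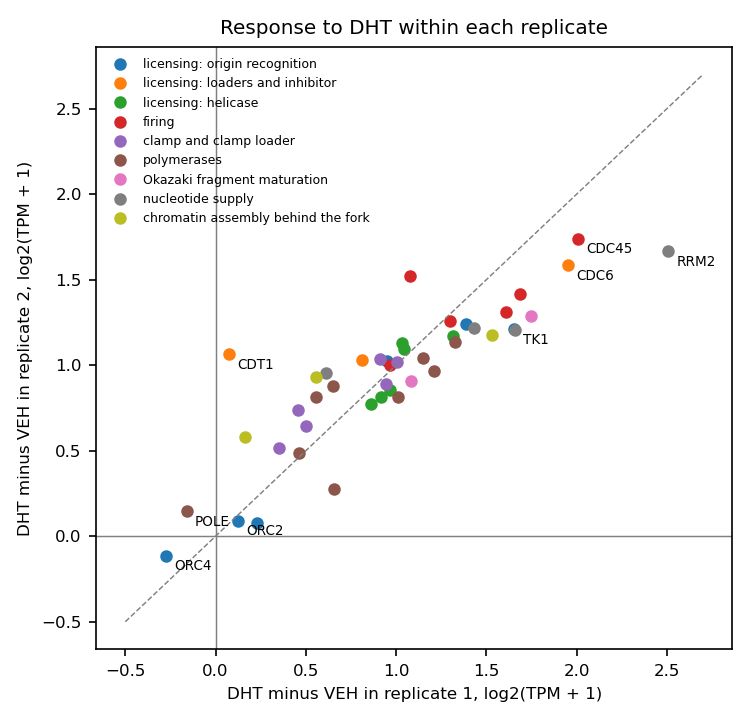
DHT minus VEH in replicate 1 (x) against replicate 2 (y), in log2(TPM + 1), 1 point per gene, coloured by step, with the line of equality dashed. RRM2, CDC45 and CDC6 lie farthest out in both replicates, CDT1 moved mainly in replicate 2, and ORC4, ORC2 and POLE lie near 0.

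The promoters of the 45 genes were read from RefSeq (GRCh38.p14, windows of 300 bases that end shortly after a transcript start). The table held 41 of the 45 genes, in 54 windows. An E2F word, taken as TTTGGCGC, TTTCCCGC, TTTGCCGC or TTTCGCGC on either strand, was present for 20 of the 41 genes (48.8%), against 6.60% of the tested genes with a promoter and 3.99% of all genes in the table. A CCAAT box (CCAAT on either strand) was present for 61.0% of the 41 genes and 43.5% of the tested genes, and TTTGAA, the core of the cell cycle homology region, for 2.44% and 13.2%. The 3 windows below belong to CDC6, UHRF1 and PCNA, genes named above from 3 different steps, and are shown for the place of the E2F word relative to the start. Capitals mark that word on the gene's strand, where GCGGGAAA is TTTCCCGC read from the other strand.
CDC6 promoter, chr17:40287629-40287928, plus strand: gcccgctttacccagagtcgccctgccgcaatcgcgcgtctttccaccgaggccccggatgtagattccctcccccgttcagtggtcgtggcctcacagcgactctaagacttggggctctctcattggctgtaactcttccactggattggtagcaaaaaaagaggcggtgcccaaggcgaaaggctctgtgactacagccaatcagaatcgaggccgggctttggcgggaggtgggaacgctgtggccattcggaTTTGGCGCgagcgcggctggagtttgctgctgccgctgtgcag
UHRF1 promoter, chr19:4909251-4909550, plus strand: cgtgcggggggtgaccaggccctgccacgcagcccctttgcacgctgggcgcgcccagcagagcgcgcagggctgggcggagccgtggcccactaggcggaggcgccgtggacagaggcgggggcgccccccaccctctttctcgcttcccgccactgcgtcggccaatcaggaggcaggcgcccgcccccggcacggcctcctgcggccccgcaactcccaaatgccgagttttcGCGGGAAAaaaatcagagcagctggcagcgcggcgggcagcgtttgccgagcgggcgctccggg
PCNA promoter, chr20:5126573-5126872, minus strand: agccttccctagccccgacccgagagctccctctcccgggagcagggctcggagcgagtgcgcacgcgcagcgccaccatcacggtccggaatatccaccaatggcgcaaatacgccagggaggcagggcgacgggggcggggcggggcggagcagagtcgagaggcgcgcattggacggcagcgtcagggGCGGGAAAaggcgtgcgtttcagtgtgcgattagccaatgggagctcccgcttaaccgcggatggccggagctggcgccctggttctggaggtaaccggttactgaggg
A word is a match of letters, not a shown binding site. The genes were chosen as replication genes, most of them known to be transcribed largely under E2F factors. A high share of E2F words was therefore given by that choice and says nothing on the response to DHT. POLE, ORC3 and CDT1, which were not called with DHT, hold a word as well, and RRM2, TK1 and CDC45, with large changes, hold none in these windows.

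With DHT present, the antagonists lowered these genes. All 45 genes had a lower group mean in BIC.DHT and in ENZ.DHT than in DHT, and 44 in APA.DHT. Of all genes tested, 50.6%, 48.7% and 50.3% had a higher mean than in DHT with BIC, ENZ and APA. The medians of the log2 fold changes were -0.57 with BIC, -1.07 with ENZ and -1.04 with APA, against medians of all genes between -0.014 and 0.0025. With the block, 21 genes fell with BIC (background: 6.82% of all genes called lower), 42 with ENZ (background: 15.9%) and 40 with APA (background: 14.1%), by limma with Benjamini-Hochberg adjustment. Without the block, 0 were called with BIC (background: 1.68%), 4 with ENZ (background: 4.91%) and 3 with APA (background: 4.11%). With BIC, 5 of the 45 had an unadjusted p below 0.05 without the block (limma), where 2513 of all genes tested did. The DHT libraries lay above both antagonist libraries for 19 genes with BIC (background: 21.9%), 39 with ENZ (background: 25%) and 40 with APA (background: 22.2%). These comparisons share the 2 DHT libraries with each other and with DHT against VEH, so their values are set side by side and are not independent. The blocked count with BIC was 4 without BIC.DHT replicate 2, 5 without DHT replicate 1, 9 without BIC.DHT replicate 1 and 12 without DHT replicate 2, while those with ENZ and APA stayed between 35 and 42.

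**Figure D3:**
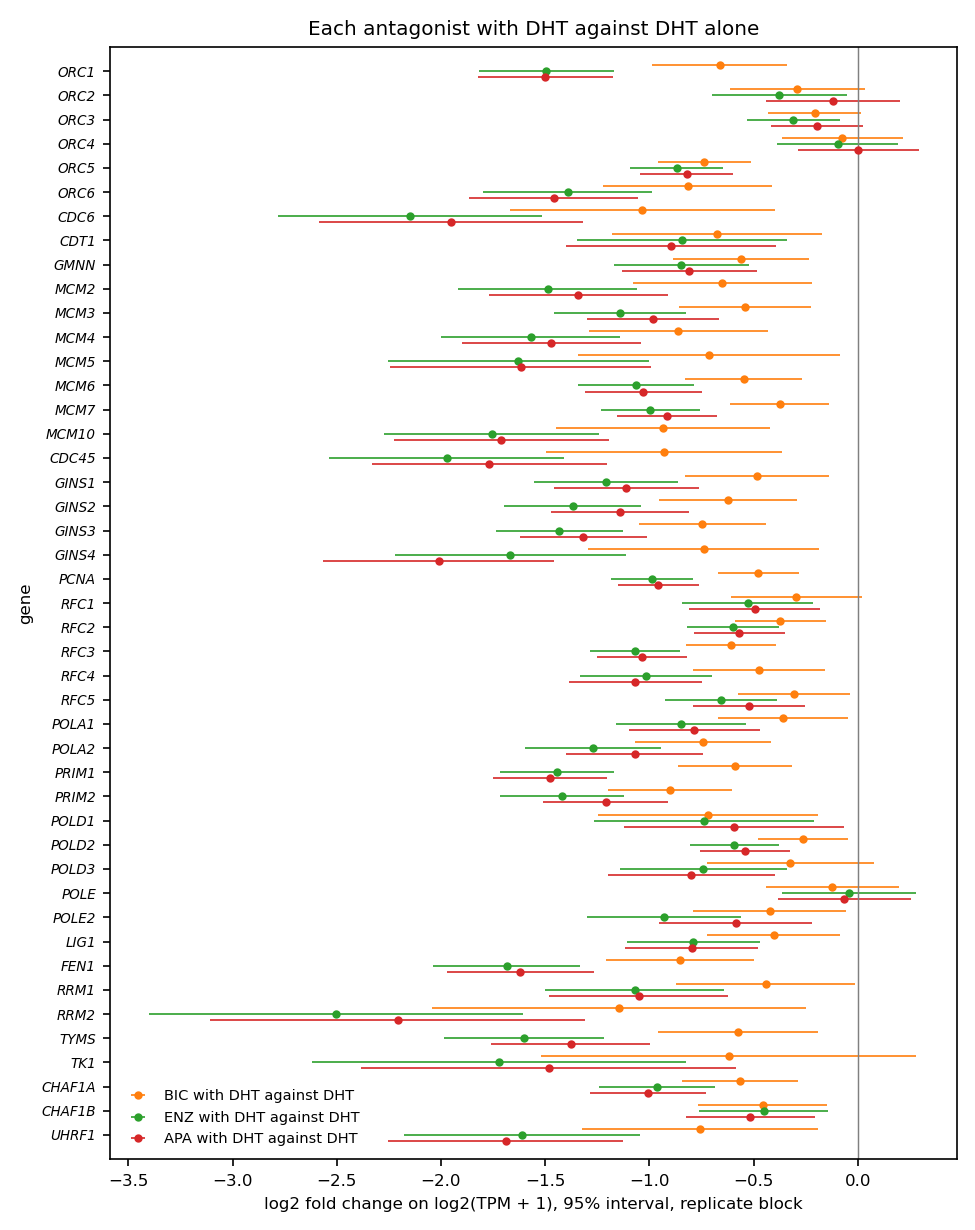
Log2 fold change of each of the 45 genes with an antagonist and DHT against DHT alone, on log2(TPM + 1), with 95% intervals of the fit with the replicate block. Nearly all points lie below 0, the BIC points nearer to 0 than the ENZ and APA points, while ORC4 and POLE straddle 0.

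Among the licensing genes, ORC1 fell with every antagonist under the block. It stood at 3.36 and 5.82 TPM in BIC.DHT, 1.17 and 3.33 in ENZ.DHT and 1.18 and 3.28 in APA.DHT. Both ENZ.DHT and both APA.DHT libraries lay below the DHT libraries, and so did those of BIC.DHT, although its second library of 5.82 TPM came close to the 6.01 TPM of the first DHT library. ORC5 stood at 18.6 and 24.0 TPM in BIC.DHT, 18.8 and 19.6 in ENZ.DHT and 18.7 and 21.1 in APA.DHT. It was called with ENZ and APA under both fits (limma adjusted p = 0.0223 and 0.0298 without the block) and with BIC only under the block (0.00118). ORC2, at 12.3 and 19.9 TPM in BIC.DHT, 12.5 and 17.3 in ENZ.DHT and 14.5 and 21.9 in APA.DHT, passed with no antagonist. CDC6 stood at 9.89 and 21.9 TPM in BIC.DHT, 2.26 and 15.3 in ENZ.DHT and 3.37 and 15.0 in APA.DHT. It fell with the block by 1.03 with BIC, 2.15 with ENZ and 1.95 with APA, while BIC.DHT replicate 2 overlapped DHT replicate 1. CDT1 was at 10.9 and 11.1 TPM in BIC.DHT, 9.75 and 9.57 in ENZ.DHT and 9.60 and 8.94 in APA.DHT. All 6 of these libraries were below both DHT libraries, and it passed without the block with ENZ (0.0465) and APA (0.0398) and not with BIC (limma adjusted p = 0.182, and 0.0785 with the block).

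Of the helicase and firing genes, all 12 fell with ENZ and with APA under the block, and 8 with BIC. MCM2 stood at 22.2 and 37.6 TPM in BIC.DHT, 9.17 and 26.5 in ENZ.DHT and 10.7 and 28.4 in APA.DHT. The ENZ.DHT and APA.DHT libraries lay below both DHT libraries, BIC.DHT overlapped them, and the log2 fold changes were -0.65, -1.49 and -1.34 (limma adjusted p with the block = 0.0513, 0.000345 and 0.000670). MCM5 was at 19.6 and 31.3 TPM in BIC.DHT, 6.04 and 25.6 in ENZ.DHT and 7.97 and 20.2 in APA.DHT. MCM7, the most abundant of the ring genes named here, was at 57.9 and 96.7 TPM in BIC.DHT, 33.3 and 69.9 in ENZ.DHT and 39.0 and 67.0 in APA.DHT. Both fell with ENZ and APA with the block, and with BIC only MCM7 passed (0.0435 against 0.130 for MCM5, limma adjusted p). The cofactor CDC45 stood at 5.99 and 14.0 TPM in BIC.DHT, 1.71 and 8.13 in ENZ.DHT and 2.24 and 9.13 in APA.DHT. GINS1, of the complex that joins it at the helicase, stood at 6.12 and 14.2 TPM in BIC.DHT, 2.63 and 9.92 in ENZ.DHT and 3.65 and 8.78 in APA.DHT. CDC45 fell with all 3 antagonists under the block and GINS1 with ENZ and APA.

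At the fork, PCNA fell with all 3 antagonists under the block. It stood at 70.3 and 116 TPM in BIC.DHT, 46.6 and 85.6 in ENZ.DHT and 48.4 and 86.2 in APA.DHT. Against DHT it fell by 0.48 with BIC, 0.99 with ENZ and 0.96 with APA, each with a SE of 0.088 under the block (limma adjusted p = 0.00599, 3.66e-05 and 4.96e-05). The loader subunit RFC2 was at 37.6 and 39.4 TPM in BIC.DHT, 30.9 and 34.6 in ENZ.DHT and 34.5 and 32.5 in APA.DHT, all below both DHT libraries. It was called with ENZ and APA under both fits (limma adjusted p = 0.0112 and 0.0151 without the block). RFC1 was at 34.8 and 36.4 TPM in BIC.DHT, 25.9 and 35.1 in ENZ.DHT and 27.2 and 35.0 in APA.DHT, and it fell with ENZ and APA under the block. The primase subunit PRIM2 was at 5.66 and 8.54 TPM in BIC.DHT, 3.33 and 6.17 in ENZ.DHT and 4.39 and 6.68 in APA.DHT. All 6 libraries were below both DHT libraries, and it was called without the block with ENZ (0.0279) and not with APA (limma adjusted p = 0.0552). POLE stood at 24.5 and 18.4 TPM in BIC.DHT, 24.7 and 20.6 in ENZ.DHT and 22.1 and 22.2 in APA.DHT. These values overlapped DHT and passed in no comparison. Of the maturation genes, FEN1 stood at 22.8 and 40.7 TPM in BIC.DHT, 10.6 and 26.1 in ENZ.DHT and 12.7 and 24.1 in APA.DHT, and LIG1 at 9.35 and 14.4 TPM in BIC.DHT, 6.76 and 11.0 in ENZ.DHT and 7.62 and 9.71 in APA.DHT. FEN1 fell with all 3 antagonists under the block and LIG1 with ENZ and APA.

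None of the 4 nucleotide supply genes passed with BIC, and all 4 fell with ENZ and with APA under the block. RRM2 stood at 23.1 and 53.4 TPM in BIC.DHT, 4.74 and 33.7 in ENZ.DHT and 7.02 and 36.4 in APA.DHT. Replicate 1 of ENZ.DHT was below 5 TPM where DHT replicate 1 stood at 55.1, and the log2 fold changes were -1.15, -2.50 and -2.21. The large subunit RRM1 was at 66.2 and 87.0 TPM in BIC.DHT, 33.1 and 71.4 in ENZ.DHT and 34.9 and 69.8 in APA.DHT. TYMS was at 37.2 and 72.1 TPM in BIC.DHT, 13.3 and 46.0 in ENZ.DHT and 18.2 and 46.8 in APA.DHT, and TK1 at 36.0 and 78.6 TPM in BIC.DHT, 11.6 and 49.5 in ENZ.DHT and 17.8 and 46.3 in APA.DHT. The second BIC.DHT library of RRM1, TYMS and TK1 lay above the first DHT library, while that of RRM2 lay just below it. Behind the fork, UHRF1 stood at 3.71 and 8.51 TPM in BIC.DHT, 0.98 and 5.92 in ENZ.DHT and 0.99 and 5.18 in APA.DHT. CHAF1B stood at 8.29 and 7.79 TPM in BIC.DHT, 7.50 and 8.69 in ENZ.DHT and 7.04 and 8.36 in APA.DHT. Both fell with ENZ and APA under the block and neither passed with BIC (limma adjusted p = 0.0785 and 0.0560). With ENZ, only ORC2, ORC4 and POLE were not called with the block, and with APA only ORC2, ORC3, ORC4, POLD1 and POLE.

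**Figure D4:**
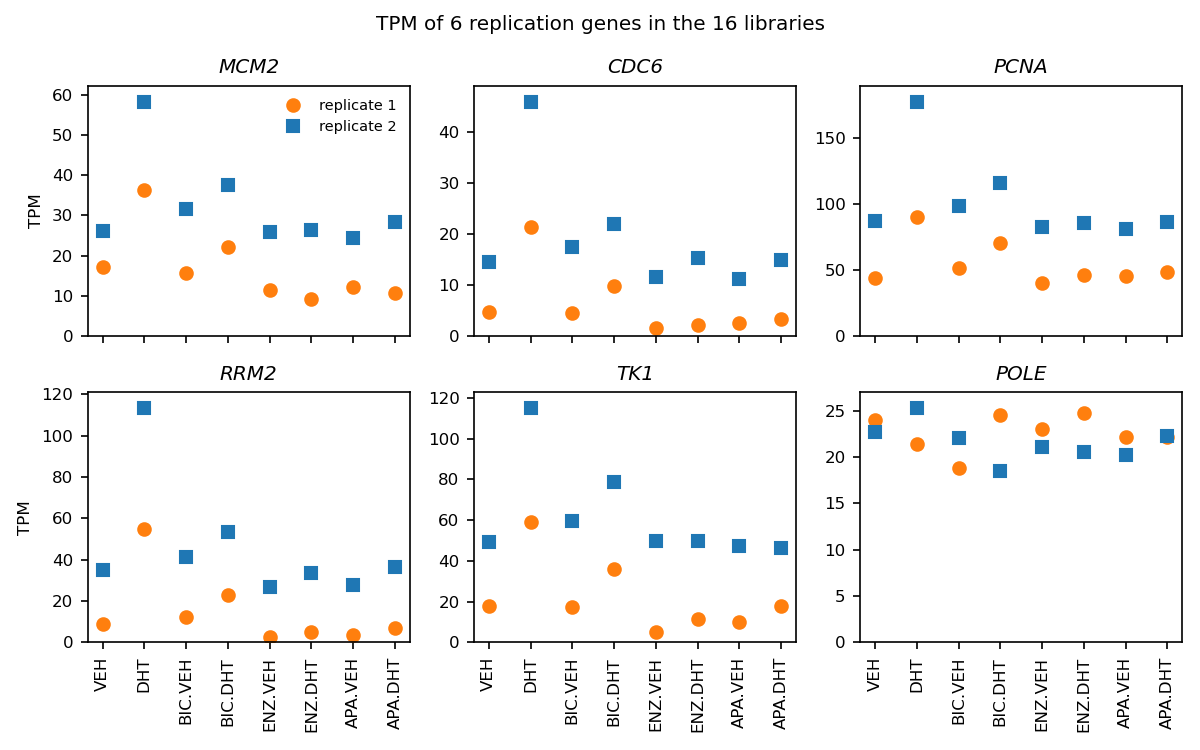
TPM of MCM2, CDC6, PCNA, RRM2, TK1 and POLE in the 8 groups, on linear axes from 0, with 1 point per library and replicate 2 as squares. The DHT libraries stand highest within each replicate for the first 5 genes, BIC.DHT comes next, and all POLE points lie between 18.4 and 25.2 TPM.

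Once an antagonist was present, no gene of the 45 was called for DHT, and almost none of all genes tested was. A count of 0 is thus not particular to the 45. Against the same antagonist without DHT, the median log2 difference of the 45 genes was 0.27 with BIC, 0.0090 with ENZ and 0.079 with APA. The count was 0 with each antagonist under either fit of limma (background, genes called in either direction: 0%, 0.00601% and 0.00601% without the block for BIC, ENZ and APA, and 0%, 0.00601% and 0.024% with it). At an unadjusted p below 0.05 (limma) there were 0 of 45 genes without the block, and 13, 3 and 3 with it. Of all genes tested, 234, 541 and 408 had such a p without the block, and 768, 1588 and 1158 with it. BIC left the largest remainder, with 35 of 45 genes higher in both replicates of BIC.DHT than BIC.VEH (background: 18.3%), against 15 with ENZ (background: 13.8%) and 19 with APA (background: 20.8%). The loss of the DHT response was tested as an interaction, the DHT effect with the antagonist minus the effect without it. With the block it was below 0 and called for 11 genes with BIC, 27 with ENZ and 26 with APA (limma). The background was 3.15%, 5.72% and 4.91% of all genes called lower. Without the block it was called for 0 genes with any antagonist (background: 0.667%, 1.05% and 0.805%). There, 3, 5 and 5 genes had an unadjusted p below 0.05 (limma), where 1716, 2163 and 2184 of all genes tested did. Such counts are thus not particular to the 45. The median interactions were -0.72, -0.94 and -0.93. PCNA passed with all 3 antagonists, by -0.67 with BIC, -0.88 with ENZ and -0.93 with APA (limma adjusted p = 0.0104, 0.00193 and 0.00161 with the block). ORC5 and PRIM1, the small primase subunit, were among the other genes that passed with all 3. RRM2 and TK1 were among several genes that passed with none. Leaving out 1 library at a time moved these blocked counts over 3 to 14 (BIC), 12 to 27 (ENZ) and 10 to 30 (APA), the lowest without VEH replicate 1, BIC.VEH replicate 2 or BIC.DHT replicate 2 for BIC and without VEH replicate 2 for ENZ and APA.

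**Figure D5:**
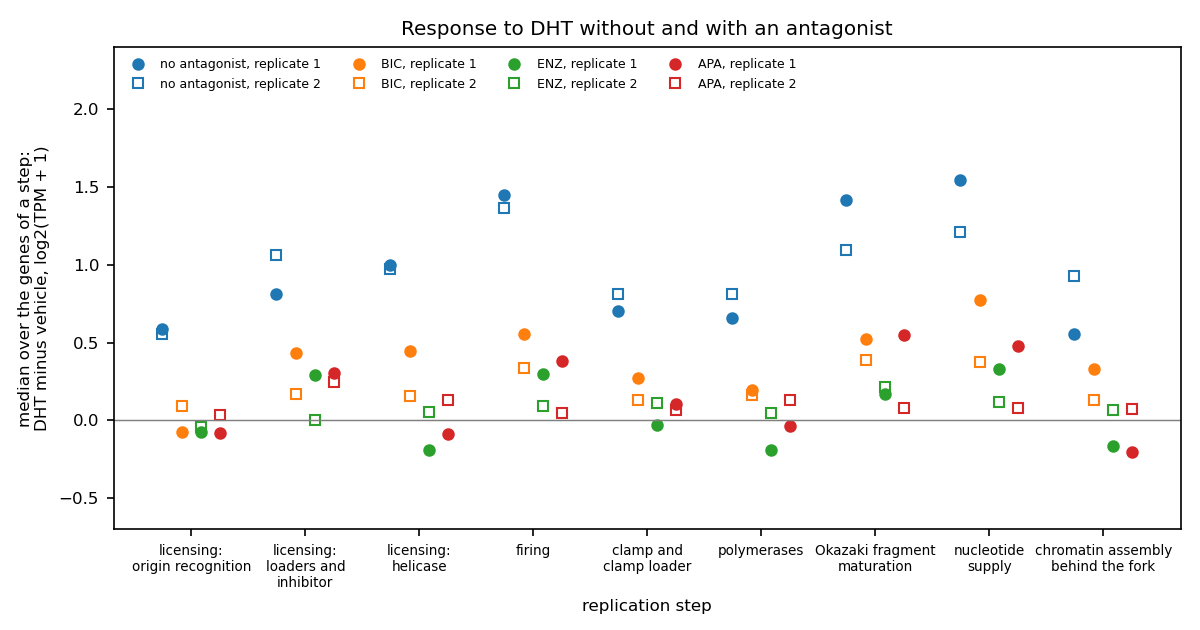
Median over the genes of each step of DHT minus its vehicle, in log2(TPM + 1), without antagonist and with BIC, ENZ or APA, filled circles for replicate 1 and open squares for replicate 2. Without antagonist the medians lie between 0.56 and 1.54, and with an antagonist between -0.20 and 0.78.

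Without DHT, the antagonists moved none of the 45 genes past the threshold, and almost none of all genes tested. No gene of the 45 was called for BIC.VEH, ENZ.VEH or APA.VEH against VEH under either fit (limma; 0 at an unadjusted p below 0.05 without the block, and 3, 4 and 0 with it). The background of genes called in either direction was 0%, 0% and 0.00601% without the block and 0.018%, 0% and 0.012% with it. Of all genes tested, 194, 139 and 151 had an unadjusted p below 0.05 without the block, and 539, 483 and 399 with it (limma). The median log2 differences were 0.14 with BIC, -0.19 with ENZ and -0.14 with APA. RRM2, at 8.87 and 35.0 TPM in VEH, was at 12.3 and 41.4 TPM in BIC.VEH, 2.73 and 26.6 in ENZ.VEH and 3.52 and 27.8 in APA.VEH. TK1, at 18.0 and 49.1 TPM in VEH, was at 17.4 and 59.5 TPM in BIC.VEH, 4.81 and 49.7 in ENZ.VEH and 10.1 and 47.1 in APA.VEH. The replicate 1 libraries of ENZ.VEH and APA.VEH lay well below their VEH library for both genes, while those of replicate 2 were close to VEH for TK1. CDC45 was at 3.30 and 10.1 TPM in BIC.VEH, 0.45 and 6.41 in ENZ.VEH and 1.34 and 6.53 in APA.VEH, and CDC6 at 4.56 and 17.4 TPM in BIC.VEH, 1.66 and 11.7 in ENZ.VEH and 2.54 and 11.2 in APA.VEH. Both lay below VEH in both replicates with ENZ and APA, again further in replicate 1, by 1.20 and 0.20 for CDC45 with ENZ. PCNA was at 51.8 and 98.5 TPM in BIC.VEH, 40.2 and 82.6 in ENZ.VEH and 45.7 and 81.5 in APA.VEH, MCM2 at 15.6 and 31.5 TPM in BIC.VEH, 11.3 and 26.0 in ENZ.VEH and 12.2 and 24.5 in APA.VEH and TYMS at 22.6 and 54.5 TPM in BIC.VEH, 12.9 and 42.0 in ENZ.VEH and 15.7 and 41.2 in APA.VEH. These overlapped VEH in each arm.

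The other genes described with DHT did not pass without it either. The helicase subunit MCM5 was at 13.6 and 27.2 TPM in BIC.VEH, 6.43 and 20.8 in ENZ.VEH and 6.95 and 20.0 in APA.VEH, and MCM7 at 40.5 and 79.7 TPM in BIC.VEH, 33.5 and 65.9 in ENZ.VEH and 34.6 and 66.5 in APA.VEH. GINS1 was at 4.57 and 11.3 TPM in BIC.VEH, 3.33 and 8.30 in ENZ.VEH and 4.53 and 8.97 in APA.VEH, and UHRF1 at 1.83 and 7.22 TPM in BIC.VEH, 0.60 and 5.61 in ENZ.VEH and 0.93 and 4.87 in APA.VEH. These 4 genes were lower in replicate 1 of ENZ.VEH than in VEH and overlapped VEH as groups.

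The origin genes likewise stayed near VEH without DHT. ORC1 was at 2.05 and 4.17 TPM in BIC.VEH, 1.09 and 3.44 in ENZ.VEH and 1.36 and 3.26 in APA.VEH, ORC2 at 17.1 and 18.7 TPM in BIC.VEH, 17.9 and 20.1 in ENZ.VEH and 14.9 and 18.6 in APA.VEH and ORC5 at 18.4 and 22.4 TPM in BIC.VEH, 15.2 and 19.1 in ENZ.VEH and 14.9 and 19.5 in APA.VEH. In each arm the values of these 3 overlapped those of VEH. The loader CDT1 was at 9.17 and 12.4 TPM in BIC.VEH, 8.55 and 11.7 in ENZ.VEH and 9.84 and 7.37 in APA.VEH, and with APA both libraries were below both VEH libraries. RFC1 was at 33.9 and 38.3 TPM in BIC.VEH, 32.4 and 32.9 in ENZ.VEH and 40.5 and 34.0 in APA.VEH, and RFC2 at 33.2 and 36.8 TPM in BIC.VEH, 33.9 and 31.8 in ENZ.VEH and 31.2 and 31.3 in APA.VEH. These clamp loader genes stayed below both DHT libraries in every arm. PRIM2 was at 4.62 and 8.17 TPM in BIC.VEH, 3.95 and 5.88 in ENZ.VEH and 4.78 and 5.64 in APA.VEH, and POLE at 18.8 and 22.1 TPM in BIC.VEH, 23.0 and 21.0 in ENZ.VEH and 22.1 and 20.2 in APA.VEH. Of the pair, only PRIM2 had all 6 libraries below both DHT libraries. FEN1 was at 14.9 and 31.9 TPM in BIC.VEH, 9.63 and 23.1 in ENZ.VEH and 10.1 and 22.9 in APA.VEH, and LIG1 at 6.52 and 10.4 TPM in BIC.VEH, 5.68 and 9.04 in ENZ.VEH and 3.97 and 9.09 in APA.VEH. RRM1 was at 59.2 and 78.1 TPM in BIC.VEH, 55.5 and 66.1 in ENZ.VEH and 53.7 and 70.7 in APA.VEH, and CHAF1B at 9.66 and 9.20 TPM in BIC.VEH, 9.94 and 8.26 in ENZ.VEH and 9.28 and 8.93 in APA.VEH. FEN1, LIG1, RRM1 and CHAF1B were below both DHT libraries in all 6.

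ENZ and APA, which share a thiohydantoin core that BIC lacks, were compared with BIC and with each other at the same dose and time, in 3 pairs with DHT and 3 pairs without. With DHT, 39 of 45 genes were lower in both replicates of ENZ.DHT than of BIC.DHT (background: 30.2%) and 38 in APA.DHT (background: 22.9%), with median differences of -0.53 and -0.48. No gene of the 45 was called without the block (limma, background, either direction for ENZ and lower for APA: 0.00601% and 0%). There, 0 of the 45 had an unadjusted p below 0.05 (limma), where 565 and 483 of all genes tested did. With the block, 35 genes had an unadjusted p below 0.05 in ENZ against BIC and 0 were called (background: 0.012%), while APA against BIC gave 1 call (background: 0.0421% called lower), PRIM1, at -0.89 (limma adjusted p = 0.0383), and 30 genes at an unadjusted p below 0.05. PRIM1 was chosen for mention because it is that call, and stood at 4.19 and 10.1 TPM in VEH, 10.5 and 21.8 in DHT, 7.17 and 13.2 in BIC.DHT and 3.19 and 7.06 in APA.DHT. PCNA differed by -0.51 between ENZ.DHT and BIC.DHT (95% interval -0.71 to -0.32) and by -0.48 between APA.DHT and BIC.DHT (-0.67 to -0.28), without passing (limma adjusted p = 0.0818 and 0.121 with the block). Between APA.DHT and ENZ.DHT the median was 0.051 and no gene passed under either limma fit (background: 0.00601% in both) or had an unadjusted p below 0.05 (102 and 232 of all genes tested, without and with the block). The interval of that difference was -0.16 to 0.23 for PCNA, -0.28 to 0.58 for MCM2 and -0.60 to 1.19 for RRM2, so differences of that size between APA and ENZ remain possible. Without DHT, 0 genes were called in the 3 pairs under either limma fit (background: 0%, 0.012% and 0.00601% without the block and 0.00601%, 0.0842% and 0.00601% with it), with medians of -0.30 (ENZ against BIC), -0.28 (APA against BIC) and 0.028 (APA against ENZ). Unadjusted p-values below 0.05 (limma) were found without the block for 0 genes in each pair and with it for 22, 16 and 0. Over all genes tested, the counts were 297, 262 and 272 without the block and 1177, 771 and 909 with it.

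Across the 8 groups the order was shared by most of the genes. DHT was the highest group for 42 of 45 genes in replicate 1 and for 44 in replicate 2. Among the other 7 groups, BIC.DHT was highest for 34 genes in both replicates. As a description over 16 libraries that share their scaling and their replicate gap, 33 of 45 genes had a Pearson r above 0.9 with the median of the other genes, and 32 after each replicate was centred. Neither the order of the groups nor this r was counted over all genes, so no background can be given for them. Before centring, ORC4 (0.45), CHAF1B (0.45) and POLE (-0.078) were below 0.5. After centring, ORC2 (0.22), ORC4 (-0.26) and POLE (0.12) were below 0.5, and CHAF1B stood at 0.58. ORC6 illustrates the split within the origin complex, since its ratio to ORC2 TPM was 0.243 and 0.461 in VEH, 0.832 and 1.05 in DHT, 0.544 and 0.723 in BIC.DHT, and 0.298 and 0.596 in ENZ.DHT.

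Of 57 further replication genes (control of licensing and firing, fork, nucleotide supply, histone supply), 28 rose and 2 fell with DHT under the block. The background was 10.6% of all genes called higher and 16.8% lower. Without the block, 1 rose and 1 fell (background: 3.63% and 6.64%). The median log2 fold change of the 57 genes was 0.43, below the 0.98 of the 45 genes. CTPS1, which makes CTP, was called under both fits. It stood at 16.8 and 20.9 TPM in VEH and 34.9 and 42.0 in DHT and rose by 0.99 (limma adjusted p = 0.00348 without the block). SAMHD1, which breaks down deoxynucleotides, went the other way, from 32.5 and 34.4 TPM to 16.9 and 19.2 TPM, and fell by 0.86 (limma adjusted p = 0.0467). HAT1, a histone acetyltransferase, and MCM8, a relative of the helicase subunits, rose with the block, by 0.70 and 1.09. TOP1 and CAD were nearest to no change, with intervals of -0.41 to 0.40 and -0.33 to 0.33. Against DHT, the block called 16 of the 57 lower and 1 higher with BIC, 35 lower and 3 higher with ENZ, and 32 lower and 3 higher with APA. The background was 6.82%, 15.9% and 14.1% of all genes called lower, and 6.5%, 13.3% and 13.2% called higher. CTPS1 was lower and RNASEH2B, a subunit of the ribonuclease that removes ribonucleotides from DNA, higher with ENZ and with APA without the block as well, RNASEH2B by 0.89 and 0.77 (limma adjusted p = 0.0105 and 0.0212).

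Counting limits some of these values. By RefSeq spans, 24 of the 45 genes overlap another annotated gene, among them PCNA (PCNA-AS1), TYMS (TYMSOS and ENOSF1), MCM7 (AP4M1) and PRIM2 (RAB23). The paper states that a strand-specific library kit was used, but whether the counting used strand is not given in the sources used here. Of the 21 genes without an overlap, 19 rose with DHT under the block (background: 10.6%). With BIC, ENZ and APA, 13, 20 and 19 fell (background: 6.82%, 15.9% and 14.1%). Pseudogenes named after 9 of the genes exist, those in the table at no more than 0.78 TPM, and PRIM2 has a near copy, PRIM2BP, with no row of its own.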

How the data were processed

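Gene expression was measured by RNA sequencing of polyadenylated RNA from 16 LNCaP libraries, 2 in each of 8 groups taken from the sample labels. Per the labels, read pairs of 125 bp were made. The submitters' processing notes name FastQC 0.11.9, Trim Galore 0.6.5, STAR 2.7.2b and RSEM 1.3.3, with reads aligned to GRCh38. The values the authors deposited are TPM per gene symbol, 1 column per library without pooling. TPM keeps no read depth, so precision was judged from the spread between replicates alone. No column belonged to other samples (0 columns).

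Symbols that reached 1 TPM in 2 or more libraries were tested (16636, with all 45 replication genes among them). Values were taken as log2(TPM + 1), so fold changes of low genes are understated. A model of the 8 group means was fitted with limma 3.58.1 in R 4.3.3 (trend option), with Benjamini-Hochberg adjustment over all genes tested within a contrast and a threshold of 0.05. The script was tested on simulated data. The fit with the replicate number as a block is given beside it, because the numbers pair the libraries: over the tested genes, all 28 between-group correlations of same-numbered libraries' deviations from their group means exceeded 0.1 (lowest 0.20, median 0.43, highest 0.64). The labels number the replicates and do not say what a number shares.

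The 45 genes, their steps and the other lists were chosen with earlier results of these data known. Full values are given for PCNA, MCM2, RRM2, TYMS and TK1, for genes called without the block, and, per step, for the gene with the largest change with DHT of one sign in both replicates and the gene nearest 0. Of the 57 further genes, those with the lowest and highest p with DHT are named, and RNASEH2B was added after its values were seen. Promoters, spans and overlaps come from RefSeq tables of GRCh38.p14. The alternatives were other filters, pseudocounts, scalings, models and libraries left out. Replicate block fits without mitochondrial genes or without 1 library were chosen after seeing the data.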

Additional observations from a re-analysis of the deposited data

Results flagged for a closer look

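The DHT effect differed with and without antagonist by a test of the interaction, under the replicate block only. The blocked fit called the interaction for 11 of the 45 genes with BIC, 27 with ENZ and 26 with APA (limma, Benjamini-Hochberg). All were towards a smaller DHT effect (background: 3.15%, 5.72% and 4.91% of all genes called lower). Without the block, 0 were called with any antagonist (background: 0.667%, 1.05% and 0.805%).

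Against the same antagonist without DHT, 3, 5 and 6 of the 45 genes were lower in both replicates with BIC, ENZ and APA (background: 44.8%, 38.8% and 28.8%). Some genes moved up with DHT in both replicates without antagonist and down in both with an antagonist. ORC3, MCM4, POLA2, GINS4 and PRIM1, which the rule for full values did not pick, did so with at least 1 antagonist. CHAF1B did so with BIC, where its mean difference of DHT against vehicle was -0.21, and with APA, at -0.22. Its interaction did not pass with the block (limma adjusted p = 0.121 and 0.0867). ORC2 did so with ENZ, at -0.34 (limma adjusted p of the interaction = 0.205 with the block). GINS1 did so with APA, at -0.14, and its interaction passed with the block (limma adjusted p = 0.0114) and not without it (0.677). RRM1 did so with APA, at -0.31, through replicate 1 (-0.61) far more than replicate 2 (-0.019), and its interaction passed with the block (limma adjusted p = 0.0306) and not without it (0.438).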

How the results depend on the processing

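The counts of called genes depended most on the model of the replicates. With the replicate block, the calls numbered 38 for DHT against VEH, 21, 42 and 40 for BIC, ENZ and APA with DHT against DHT, 1 for APA.DHT against BIC.DHT, and 11, 27 and 26 for the interactions of BIC, ENZ and APA, against 3, 0, 4, 3, 0, 0, 0 and 0 without it; it changed no other count. With the block and median-ratio scaling they were 42, 25, 42 and 40, and 15, 27 and 30 for the interactions. With the block and without mitochondrial genes they were 39, 19, 42 and 40, and 11, 25 and 27. Without the block, median-ratio scaling gave 5 for DHT against VEH, 8 with ENZ and 7 with APA, and leaving out mitochondrial genes gave 6 with APA. Without a filter on low values the counts were 2 with ENZ and 1 with APA. With only the 2 compared groups in the fit, 0 genes were called for DHT against VEH, ENZ.DHT against DHT and APA.DHT against DHT (limma; 25, 25 and 22 at an unadjusted p below 0.05).

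Leaving out 1 library at a time without the block gave 0 to 3 for DHT against VEH, 0 to 8 with ENZ (0 without DHT replicate 2 or ENZ.DHT replicate 1, 8 without ENZ.DHT replicate 2) and 0 to 4 with APA (0 without DHT replicate 2, 1 without APA.DHT replicate 1). With the block it gave 30 to 39 for DHT against VEH, 4 to 25 with BIC, 36 to 42 with ENZ, 35 to 40 with APA, 0 to 3 for ENZ.DHT against BIC.DHT, 0 to 1 for APA.DHT against BIC.DHT, and 3 to 14, 12 to 27 and 10 to 30 for the interactions of BIC, ENZ and APA. A lone library left in a group was taken to vary like the others.

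Some directions changed for single genes. POLE in DHT against VEH, -0.0063 as reported, was 0.11 with median-ratio scaling, also with the block, and 0.032 without mitochondrial genes. With 1 library left out, the log2 fold change ranged over -0.21 to 0.42 for ORC2 and -0.12 to 0.11 for POLE in DHT against VEH, over -1.03 to 0.067 for GINS1, -0.61 to 0.034 for ORC2, -0.96 to 0.0085 for PCNA and -0.32 to 0.073 for POLE in BIC.DHT against DHT, over -0.17 to 0.086 for POLE in ENZ.DHT against DHT, and over -0.42 to 0.18 for ORC2 and -0.18 to 0.049 for POLE in APA.DHT against DHT. The PCNA reversal (without DHT replicate 2) and the GINS1 reversals (without DHT replicate 2 or BIC.DHT replicate 1) compare libraries of unequal replicate numbers. Where no value shows the cause, the cause was not tested. The median of all genes for DHT against VEH moved from -0.098 to 0 with median-ratio scaling. TPM gives no depth, so no detection limit is stated.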
